A study of Mytilus galloprovincialis with 40 samples.

Results

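In digestive glands of female *Mytilus galloprovincialis* followed through a year, 106 of 1920 cDNA clones (5.52%) reached their highest relative transcript abundance in November. They were selected on the measured values themselves. A clone belonged to the group when it differed among the 12 months by limma's moderated F test, with a Benjamini-Hochberg adjusted p under 0.05 over all clones, and when November was the highest of its 12 fitted months. The F test passed 719 clones, or 37.4% of those tested, and November was the highest month of 279 clones, of which 38% passed. For the month levels of these clones the selection leaves only a description, and none of the month differences given for them is a test.

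The females came from the Bizerta Lagoon in Tunisia and were sampled in each month from May 2007 to April 2008. The study took females of the gonad stage that was most represented in a month, so month and stage cannot be told apart. Each of the 40 arrays set the RNA of a single female of one month, in one dye, against that of a single female of the month before in the other dye, and the first month was set against the last, so that the 12 steps closed a loop. All animals were untreated, and November was measured on 6 arrays, 3 with October (Nov/Oct) and 3 with December (Dec/Nov). In bulk tissue, fewer cells of a type and less RNA per cell cannot be told apart.

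The digestive gland is the organ in which bivalves absorb and digest food inside their cells, and it also stores reserves and takes up metals. Its work follows the food supply, the temperature of the water and the demands of the gonad, which all change with the season. A spot on a cDNA array carries the copied insert of one clone, and the ratio of its dyes gives the relative abundance of the matching transcript in both animals, not its absolute level. Clones are known here by a code for plate and well only. The reference's gene table held 0 of the 1920 codes, so that no clone is named as a gene and no pathway, marker list or tissue marker was analysed here.

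The arrays were not equally informative. The share of clone spots above background in both dyes ranged between 13.6% and 78.4%, with a median of 39.7%, and between 20.6% and 56.2% on the November arrays. Among the 48 pairs of replicate arrays, 2 pairs shared deviations of single spots: the difference between the duplicate spots of a clone correlated with r of 0.47 between Dec/Nov 2 and Dec/Nov 3 and with 0.56 between Mar/Feb 2 and Mar/Feb 4, against -0.11 to 0.09 in the other 46 pairs. The log2 ratios of Dec/Nov 2 and Dec/Nov 3 correlated with r of 0.93, and with Dec/Nov 1 with 0.36 and 0.35. Whether these pairs hold the same slide or the same animals was not tested. Several of the counts that rest on November arrays are also given with each pair averaged as 1 array, and the others take both arrays of a pair as separate. So averaged, 93 clones met the rule, 86 of them among the 106. Apr/Mar 1 ran against the fit of all other arrays with r of -0.80, so that its direction is not settled, and with its sign turned 112 clones peaked in November, 102 of them among the 106.

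The 106 clones had a low late summer, a steep step into November and a slower return. Relative to each clone's mean of the 12 months, their median level on the log2 scale lay between -0.13 and -0.08 from May to July, at -0.36 in August, at -0.17 in September and at -0.11 in October. It was 0.54 in November, 0.26 in December and 0.07 in January, and between -0.02 and 0.03 in February, March and April. August was the lowest month of 45 clones, May of 15 and October of 14, and 95 of the 106 had their lowest month between May and October. In December 95 clones were still above their own mean, and in January 68.

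**Figure D1:**
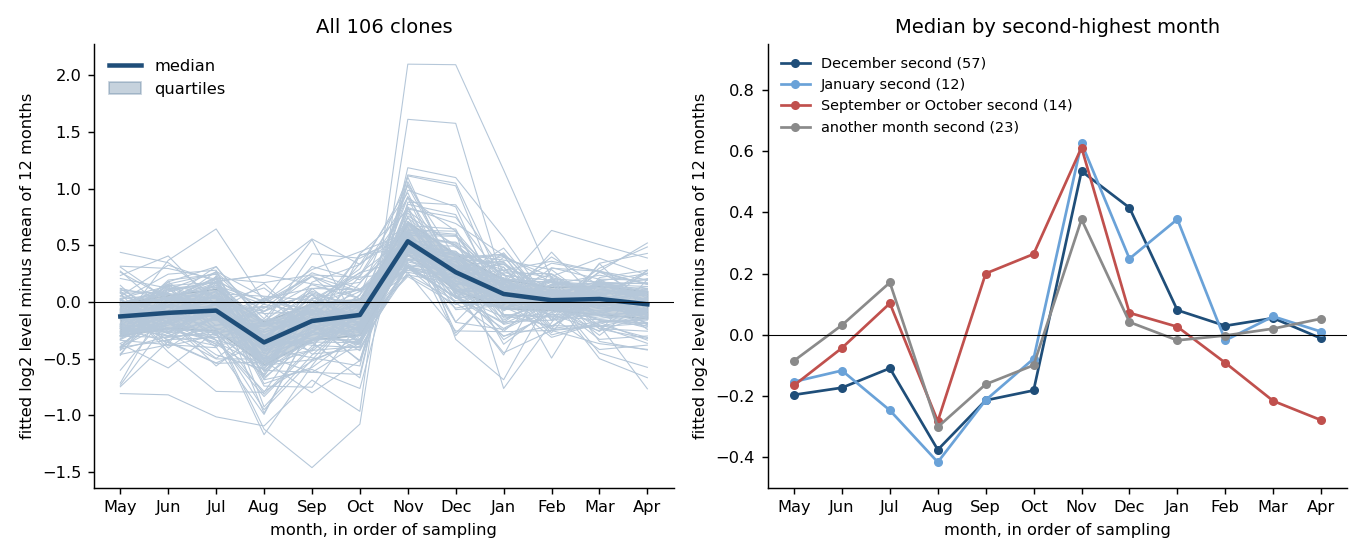
Fitted log2 level minus the clone's mean of the 12 months (y axis) against month in order of sampling (x axis): left, each of the 106 clones as a thin line with the median and quartiles; right, the median of the clones grouped by their second-highest month. The median is 0.54 in November and 0.26 in December, and the groups differ mainly in July, in September and October, and in December and January.

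The size of the peak was modest in most clones. November stood above the mean of the other 11 months by a median of 0.58 on the log2 scale, or 1.50-fold, with a median standard error of 0.18. The differences of single clones lay between 0.24 and 2.29, and 14 clones were at least 2-fold above the other months. The highest and the lowest fitted month of a clone differed by a median of 1.96-fold, with extremes of 1.36-fold and 9.14-fold. A range of at least 2-fold was reached by 46 clones and one of at least 4-fold by 4 clones. These 4, singled out after their values were seen, were Myt01-001B02, Myt01-002B04, Myt01-017F09 and Myt01-019C01.

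The step into November was the largest of the year for these clones and was present on each of the 3 arrays. Their median November minus October was 0.39 on Nov/Oct 1, with November in Cy5, and 0.74 on Nov/Oct 2 and 0.85 on Nov/Oct 3, with November in Cy3, while the medians of all clones lay within 0.02 of 0. November was the higher month in 103, 96 and 104 of the 106 clones on these arrays. All 3 arrays had November higher in 92 clones, against 24.6% of all clones, a share that the selection itself raised. The fitted difference had a median of 0.67, or 1.59-fold. Of the 106, 56 were called higher in November than in October with an adjusted p under 0.05 and B above 0 in limma, against 6.61% of all clones called higher. By the rule, 106 of 106 fitted differences were positive. The count of 56 became 28 without Nov/Oct 3, 37 without Nov/Oct 2, 31 with median centring and 52 with the 2 array pairs averaged. When only the brighter clones were tested it was 21, out of the 63 members among them. The called clones had a median difference of 0.81, or 1.75-fold, and the other 50 one of 0.41, or 1.33-fold. The called clones were the dimmer ones, with a median log2 intensity of 7.69, against 8.84 in the other 50. This median was 7.31 for all clones and 8.19 for those that passed the F test.

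**Figure D2:**
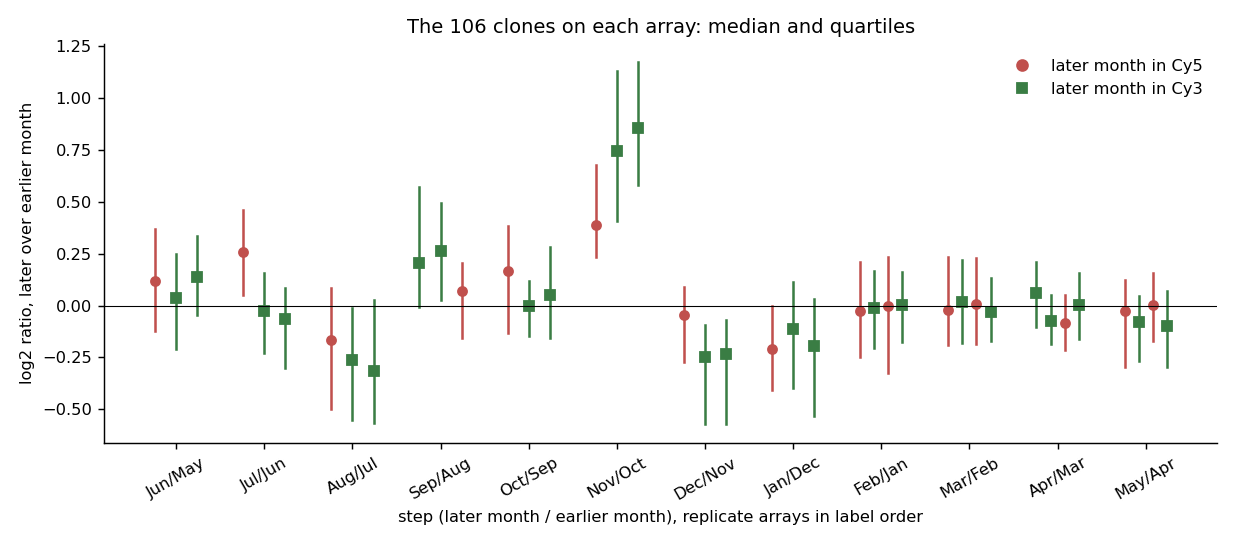
Log2 ratio of the later over the earlier month on each of the 40 arrays (y axis), by step in order of sampling (x axis): points are medians over the 106 clones, bars their quartiles, circles arrays with the later month in Cy5 and squares those with it in Cy3. The Nov/Oct arrays have medians of 0.39, 0.74 and 0.85, and the Dec/Nov arrays medians of -0.05, -0.25 and -0.23.

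The 2 clones with the highest moderated F were also those with the largest distance between November and the other months and between November and October. For Myt01-002B04 the log2 ratio of November over October was 2.67, 3.96 and 3.39 on the 3 Nov/Oct arrays. Its background-corrected intensities there were 682.5, 2070 and 2518 in November females, against 234.8, 140.3 and 273.1 in October females. November exceeded October on every array, in a clone that was picked for this difference. The intensities of this and the next clone were not normalized between dyes or arrays, so that only the ratios compare the months. For Myt01-001B02 the log2 ratios were 1.98, 3.21 and 3.35. Its intensities were 395.5, 775.7 and 1462 in November females, against 208.3, 88.26 and 157.1 in October females, but its October spots were above background on only 1 of the 3 arrays. On the other 2 arrays its October level is known only as an upper bound, and its ratios there are not exact sizes. The October spots of Myt01-002B04 were above background on all 3.

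Both of these clones remained as high in December. The fitted level of Myt01-002B04 was 2.10 in November and 2.09 in December, and it was still 1.17 above the clone's mean in January. On the Dec/Nov arrays its November minus December was 0.23, -0.49 and -0.55. Myt01-001B02 had levels of 1.61 in November and 1.58 in December, with differences of -0.49, 0.07 and 0.06 on the same arrays. For neither clone did the arrays show one sign, and the gap between both months was 0.005 ± 0.27 (SE) for Myt01-002B04 and 0.04 ± 0.23 for Myt01-001B02. Myt01-002B04 met the rule in 16 of the 40 fits with an array left out and in 7 of the 14 other settings. For Myt01-001B02 these counts were 39 and 11. Over the 40 arrays the ratios of both clones correlated with r of 0.72, a description of measurements made on the same arrays.

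Against December the peak was small in general. The members' median November minus December was 0.05 on Dec/Nov 1, with November in Cy3, and 0.25 and 0.23 on Dec/Nov 2 and Dec/Nov 3, with November in Cy5. November was higher in 62, 91 and 87 clones on these arrays. It was higher on all 3 in 49 clones, against 19.6% of all clones, and on all 6 November arrays in 36, against 5.31% of all clones. With the Dec/Nov pair averaged, November was higher on both Dec/Nov arrays in 51 clones, against 24.8% of all clones, and on all 5 November arrays in 38, against 6.15%. A further 52 clones had November higher on 5 of the 6 arrays, 13 on 4 and 5 on 3. The fitted difference had a median of 0.21, or 1.15-fold, which is close to its median standard error of 0.16.

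Of the 106 clones, 9 were called higher in November than in December, against 1.09% of all clones. With Dec/Nov 2 and Dec/Nov 3 averaged, and likewise the Mar/Feb pair, limma called 0 of the 106, although 23 had an unadjusted p under 0.05, and 3 clones of the 1920. It also called 0 of the 106 without Dec/Nov 2, without Dec/Nov 3 and with median centring, with 23, 23 and 26 at an unadjusted p under 0.05. With the array pairs averaged, the median difference was 0.19 with a median standard error of 0.19, and 101 of the 106 differences were positive.

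Of the 9 clones, Myt01-006A06 and Myt01-010A03 had the largest differences from December among those higher on every Dec/Nov array. The values of Myt01-006A06 were 0.43, 1.32 and 1.52 for November minus December and 0.99, 1.14 and 1.33 for November minus October. Those of Myt01-010A03 were 0.35, 1.24 and 1.30 against December and 0.47, 0.57 and 0.80 against October. Both clones were thus higher in November on 6 of 6 arrays, with the smallest difference from December on Dec/Nov 1. Both also had a second maximum in July, at 0.64 above the mean in Myt01-006A06 and at 0.20 in Myt01-010A03, against 0.84 and 0.66 in November. Myt01-006A06 was the only one of the 106 that was at least 2-fold higher in November than in December.

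Another 4 of the 9 lay on plate 17, in wells B11, D07, F07 and F09, and were singled out after their values were seen. Their ratios over the 40 arrays correlated with each other with r of 0.92 to 0.96, against a median r of 0.34 over all 5565 pairs of the 106 clones. Only 8 of these pairs, among 7 clones, had an r over 0.9. Myt01-017F09 was higher in November by 1.00, 0.65 and 1.58 than in October and by 0.76, 1.03 and 0.85 than in December. Myt01-017D07 was higher by 0.47, 0.62 and 1.24 and by 0.56, 0.92 and 0.75. The 4 clones were higher in November on each of the 6 arrays, including Dec/Nov 1. Whether they carry the same transcript was not tested, so they may not be separate measurements.

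**Figure D3:**
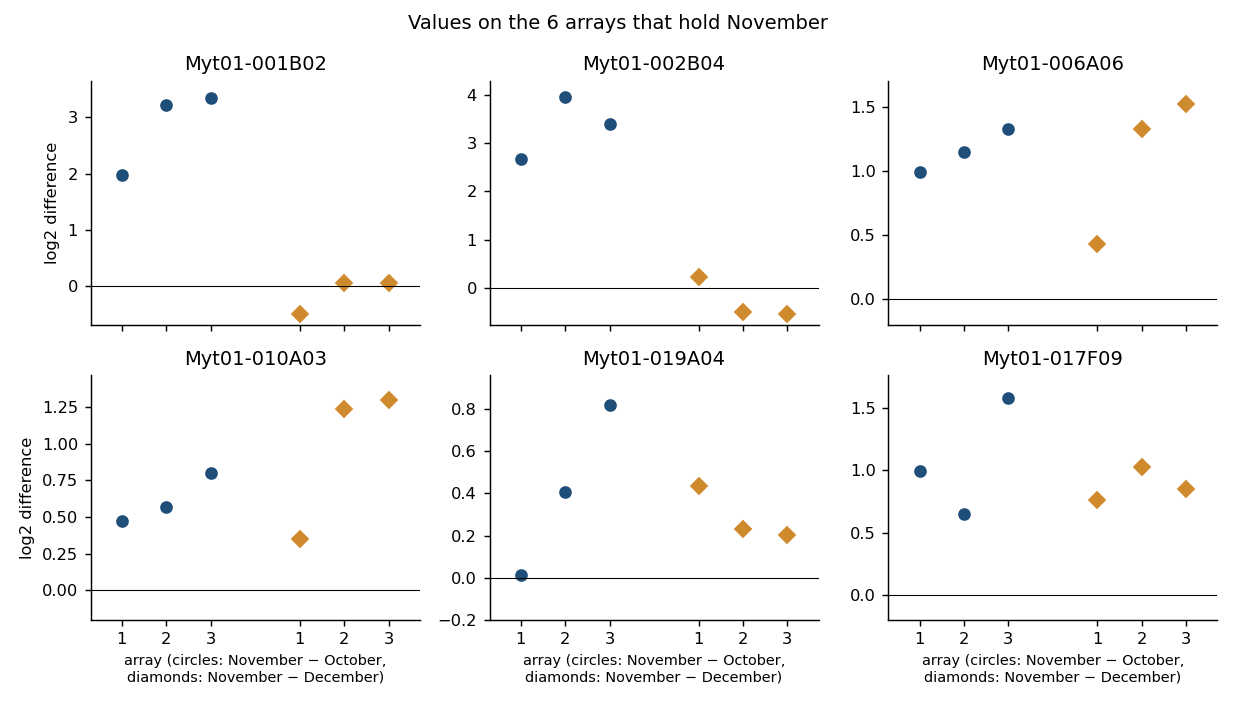
Log2 difference of November minus October (circles) and November minus December (diamonds) on the 6 arrays that hold November (x axis, arrays in label order) for 6 clones, each panel with its own y axis. Myt01-001B02 and Myt01-002B04 lie between 1.98 and 3.96 against October and between -0.55 and 0.23 against December, while Myt01-006A06, Myt01-010A03, Myt01-019A04 and Myt01-017F09 have November higher on all 6 arrays. Diamonds 2 and 3 are the arrays that share spot deviations.

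January, the reference month of the study, is joined to November through December only on one side of the loop. November was above January by a median of 0.48, or 1.39-fold, with a median standard error of 0.21. In limma 13 of the 106 were called higher in November than in January, against 0.781% of all clones. With the 2 array pairs averaged it called 0, with 53 of the 106 at an unadjusted p under 0.05. The medians of November minus the remaining months were between 0.52 for March and 0.87, or 1.83-fold, for August.

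The second-highest month divided the 106 clones into different courses, by the same values that selected them. December was second in 57 clones, in which both months lay close together, with medians of 0.53 in November and 0.41 in December. January was second in 12, whose medians were 0.63 in November, 0.25 in December and 0.38 in January. In 14 clones September or October was second, and these stood above their mean earlier in the autumn, with medians of 0.20 in September, 0.26 in October, 0.61 in November and 0.07 in December. The remaining 23 had another second month, July in 10 of them, with medians of 0.17 in July and 0.38 in November.

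The lead of November over the second month was narrow in most clones. It had a median of 0.12 on the log2 scale against a median standard error of 0.19, was below 0.1 in 50 clones, exceeded 1 standard error in 36 and exceeded 2 in 11. For Myt01-001F02 and Myt01-001F11, with the smallest leads, November exceeded December by 0.002 ± 0.11 and 0.002 ± 0.20 (SE). November and December do not differ beyond their error in such clones. The lead was widest, at 0.91, in Myt01-017F09. Among the clones whose second month lay outside September, October, December and January, the highest second levels belonged to Myt01-006A06 in July, given above, and to Myt01-001F05 in April, at 0.52, against 0.58 in November.

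**Figure D4:**
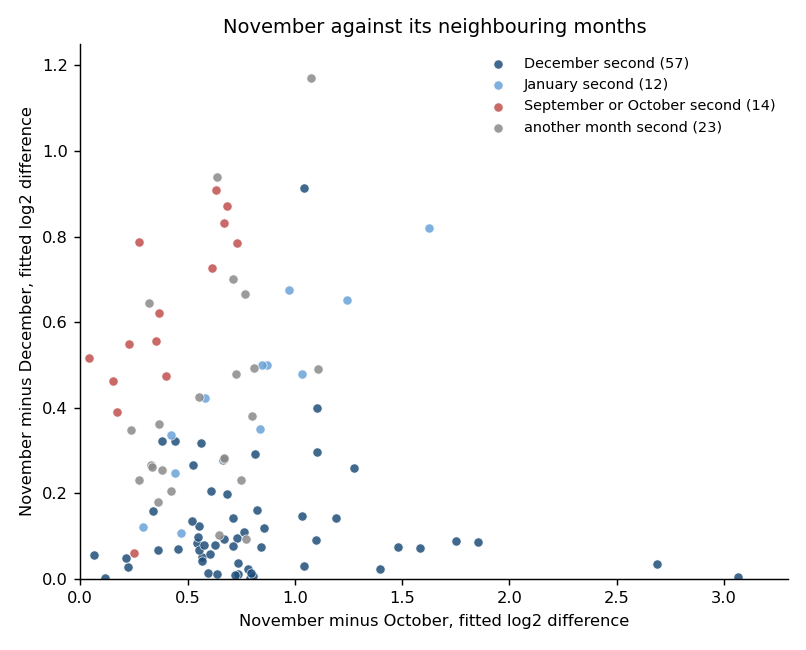
Fitted log2 difference of November minus December (y axis) against that of November minus October (x axis) for the 106 clones, coloured by second-highest month. All points lie above 0 on both axes because November is the highest month by the rule. Clones with December second have a median of 0.08 on the y axis, and Myt01-006A06 alone lies above 1.

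The courses of the members resembled each other to differing degrees. A clone's 12-month profile correlated with the median profile of the other 105 with a median r of 0.76, and the range was -0.19 to 0.95. In 48 clones r was above 0.8 and in 14 it was below 0.5. Myt01-006A06, with its second maximum in July, had an r of 0.15 with the members' median profile, and Myt01-002B04 one of 0.90. Outside the 106, the most similar profiles over the 12 months were those of Myt01-001B05, with r of 0.96, and Myt01-005B08, with r of 0.94. Both had November highest and December second but did not pass the F test, with adjusted p of 0.0727 and 0.564, and Myt01-005B08 was above background in both dyes on 0 of the 40 arrays. On the Nov/Oct arrays it had differences of 1.33, 0.03 and 0.10, so that 1 array carried its November level.

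At the threshold itself, Myt01-018D11 and Myt01-001B03 were the last to enter, with adjusted F p of 0.0464 and 0.0462. Their November levels were 0.47 and 0.62 above the mean of the year. Myt01-019B01 and Myt01-002F05 were the first to be left out, with 0.0501 and 0.0503 and November levels of 0.61 and 0.25. The clones on both sides overlapped in the size of their peak.

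The loop allowed each step to be estimated without its own arrays. From the 37 arrays other than Nov/Oct, the members' median November minus October was 0.32, against 0.67 on the direct arrays, and it was positive in 85 clones, against 49.8% of all clones. From the 37 arrays other than Dec/Nov, the median November minus December was 0.53, against 0.18 on the direct arrays, and it was positive in 93 clones, against 53.9% of all clones. Both medians had November as the higher month. In a single loop, direct and round estimates of a clone differ at every step by the same amount, the failure of the loop to close. Both comparisons therefore show the same misfit of the members, once with its sign turned, and its cause was not tested. Over all clones the direct and round medians were 0.009 and -0.002 for November minus October and -0.004 and 0.047 for November minus December. The clones were chosen on all of these arrays, so that this is a description of the loop and not a separate test.

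The dye was not used to select the clones. With 1 more term per clone for the dye of the later month, 4 of the 106 had a dye effect with an adjusted p under 0.05 in limma, against 8.96% of all clones. Their dye terms, signed positive where the Cy5 channel was brighter, were 0.23 ± 0.06 (SE) in Myt01-002H11, 0.16 ± 0.05 in Myt01-016A11, -0.14 ± 0.04 in Myt01-002D08 and -0.13 ± 0.04 in Myt01-018D02. The next largest by size among those not called was -0.18 ± 0.07 in Myt01-002B04, with an adjusted p of 0.111. The largest term stands against a difference of 1.01 ± 0.29 between November and the other months in the same clone. With the 2 array pairs averaged 1 of the 106 was called, and with dye terms in the model 103 of the 106 still met the rule. On the 3 Nov/Oct arrays the array with November in Cy5 had the lowest member median, and on the 3 Dec/Nov arrays the array with November in Cy3 had it.

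The spots of the 106 clones were brighter than most. Their mean log2 intensity had a median of 8.16, against 7.31 for all clones and 8.19 for the clones that passed the F test. On at least 50% of the arrays 59.4% of them were above background in both dyes, against 33.9% of all clones. Among the clones that passed the F test this share was 56.5%. The duplicate spots of the 106 differed by a median of 0.15 on the log2 scale. The median was 0.18 for all clones and 0.16 for those that passed. The October channel was not above background on any Nov/Oct array in 4 clones, of which 3 were called, and the December channel on any Dec/Nov array in 16, so that, where November was above background, the other month is known only as an upper bound. In 2 clones, Myt01-002A01 and Myt01-020G09, November was not above background on any of its 6 arrays, and neither clone was above background in both dyes on any of the 40. Myt01-002A01 was nevertheless among the 56 called above October and Myt01-020G09 among the 9 called above December, so that the size of neither difference is measured. The 2 brightest members, Myt01-014F09 and Myt01-019A04, had peaks of 0.63 ± 0.23 and 0.88 ± 0.23 (SE) above the other months. Over 14 other settings the peak of Myt01-014F09 fell as low as 0.04 and had an adjusted p under 0.05 in limma in 3. That of Myt01-019A04 fell no lower than 0.78 and had such a p in 12. Myt01-019A04 had differences of 0.01, 0.41 and 0.82 from October and of 0.44, 0.23 and 0.20 from December, and in Myt01-014F09 Nov/Oct 2 went the other way, at -0.60, against 0.70 and 1.08 on the other Nov/Oct arrays.

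The 106 clones came from 19 of the 20 plates in the clone codes but not evenly. Plates 1 and 2 held 29 of them, or 27.4%, against 10% of all clones and 11% of those that passed the F test. Plates 14 to 19 held 46, or 43.4%, against 30% of all clones and 35% of those that passed. Of the clones that peaked in September or October 2.34% lay on plates 1 and 2, and of those that peaked in December or January 14.3%. These plates were grouped after the counts were seen. What the plates hold is not given in the sources used here, and the part of plate or print position in these counts was not tested. The 16 print-tip blocks of the slide held between 0 and 15 of the clones each.

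**Figure D5:**
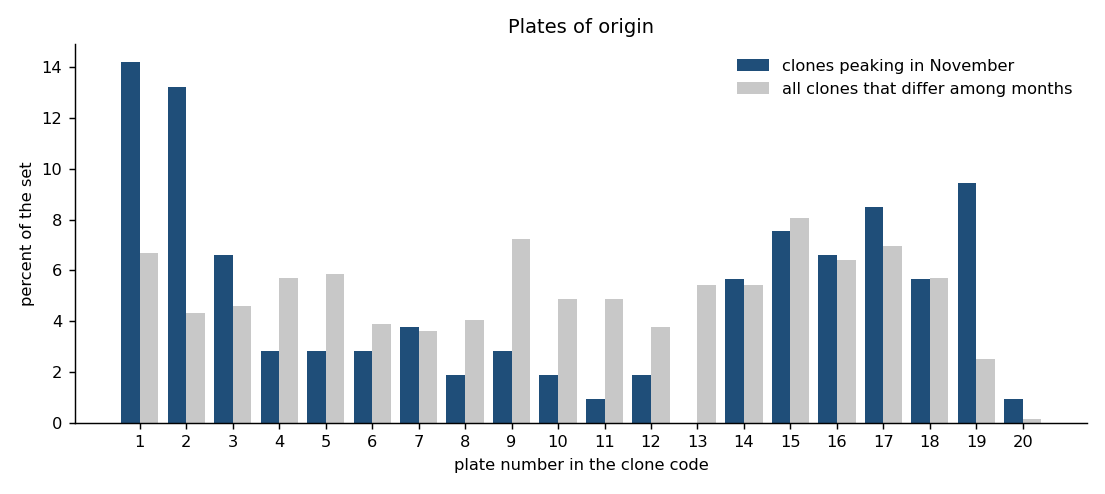
Percent of the set (y axis) on each plate of the clone code (x axis) for the 106 clones peaking in November (left bars) and for all 719 clones that differed among months (right bars). Plates 1 and 2 together hold 27.4% of the November clones and 11% of all clones that differed, and plate 13 holds none of the 106.

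The neighbouring seasonal groups had other months as their peak by the rule that defined them. The 98 clones that peaked in December or January had a median of 0.26 in November, 0.49 in December and -0.34 in August, and the 128 that peaked in September or October had medians of 0.42 in September and 0.39 in October and of -0.06 in November. The August minimum, at -0.36 in the November clones, was near that of the December or January clones, while the September or October clones stood at 0.04 in August. The median range of a clone was 1.96-fold in the November clones, 2.07-fold in the December or January clones and 2.23-fold in the September or October clones. Their mean log2 intensity had a median of 8.16 in the November clones, 7.62 in the December or January clones and 8.49 in the September or October clones. These groups were all cut from the same fit, so that none of these differences was tested.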

How the data were processed

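Spot intensity values were deposited for each array as GenePix gave them to the authors (mean foreground and local background median per dye), with neither normalization nor flags. A second deposited file holds log2 ratios that the authors had normalized with limma (version not given in the sources used here). Of its 40 columns, 38 could be recomputed from the intensities to within 5.00e-05. The columns of Dec/Nov 3 and Mar/Feb 4 held sign-turned copies of Dec/Nov 2 and Mar/Feb 3 and were not used.

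Intensities were corrected with normexp (offset 50) and normalized by a global loess fitted on the clone spots, in R 4.3.3 with limma 3.58.1. The log2 ratio of the later over the earlier month followed the dye labels, and duplicate spots were averaged per clone. A loop design with 11 month coefficients relative to January left 29 residual degrees of freedom. A clone was called with an adjusted p under 0.05 over all 1920 clones and, for single contrasts, B above 0. Above background means a foreground over the local mean background plus 2 standard deviations at both spots. The labels state single individuals and 1 replicate per array. The number of arrays limits the precision.

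Members and lists were chosen with earlier results of these data known. Clones named outside the rules below came from small sets, such as those with a called dye term. The outlier search and the counts over named clones leave them out. At most 2 clone codes were named for each of these: highest F, largest November minus the other 11 months, October or December, nearest to the threshold on either side, smallest lead over the second month, highest distant second month, brightest, largest dye term, and most similar outside the group. Alternatives were other background corrections and normalizations, a filter on dim clones, a dye term, array weights, a replicate block, the deposited ratios, a turned array, an open loop, and each array left out. Averaging the array pairs was added after seeing the data. The procedure was also run on simulated data with independent errors and a peak in November alone. Those data held no shared spot deviations, no dye effects and no raised December, so that no conclusion is drawn from them.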

Additional observations from a re-analysis of the deposited data

Results flagged for a closer look

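In the steps with 4 separate arrays, 51 sets of 4 values (the median over the 106 clones and the values of each named clone) were searched for an array far from the other 3, and 4 sets held one, all of single clones. The critical value picks about 1 set in 20 by chance. Myt01-018D11 had a log2 ratio of 0.33 on Feb/Jan 2, against -0.45 to -0.36 on the other 3 arrays of that step. Myt01-001F02 stood at -0.19 on May/Apr 1, against -0.05 to -0.03, and at -0.14 on Apr/Mar 3, against -0.04 on the other 3. Myt01-002H11 stood at 0.74 on Apr/Mar 1, the array whose direction is not settled, against -0.86 to -0.67.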

How the results depend on the processing

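The median November level of 0.54 was 0.38 to 0.70 under the 14 other settings and 0.47 to 0.57 with each array left out. Its sign was largely fixed by the rule, which took clones with November highest. Membership changed with the setting. With median centring 46 clones met the rule, 40 of them among the 106, and the calls against October, December and January became 31, 0 and 0 in limma, with 26 and 41 members at an unadjusted p under 0.05 against December and January. The dye calls became 45 under that setting. Array weights gave 174 clones, with 26 calls against December, 37 against January and 15 for the dye. The highest weights, 5.10 and 5.20, fell on Dec/Nov 2 and Dec/Nov 3, which share spot deviations, against 0.61 for Dec/Nov 1. Without the May/Apr arrays 68 clones met the rule, 61 of them members, with 5 calls against December, 1 against January and 2 for the dye. An adjusted p under 0.01 left 65 clones. Restricting the test to the 650 brighter clones kept 63 of the 63 members among them, with 21 calls against October and 8 against January. The deposited ratios gave 0 calls against December (19 at an unadjusted p under 0.05), 0 against January (51) and 1 for the dye, and averaging the array pairs also gave 0, 0 and 1. Calls against January were 7 with plain background subtraction and 7 with none. Dye calls were 2 with no background correction, with print-tip loess and with Apr/Mar 1 turned. Scaling of intensities between arrays changed no ratio. The causes of these changes were not tested.

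With arrays left out, 80 to 123 clones met the rule and 77 to 104 of the 106 stayed, both lowest without Nov/Oct 3. Calls against October were 28 to 59, with 28 without Nov/Oct 3 and 37 without Nov/Oct 2. Calls against December were 0 to 11 and those against January 0 to 15, each 0 without Dec/Nov 2 or without Dec/Nov 3, with 23 members at an unadjusted p under 0.05 against December in both cases and 56 and 54 against January, and calls against January were 7 without Jan/Dec 1 and 6 without Jan/Dec 3. Dye calls were 1 to 7 and moved by more than 1.5 times in 14 of the 40 cases. In every case of an array left out 51 members stayed, and in every other setting 7. With a replicate block 112 clones met the rule, including all 106, and 57, 9 and 14 members were called against October, December and January. Same-numbered arrays of different steps had a median correlation of 0.02 in their deviations, with a range of -0.36 to 0.47. The correlation was over 0.1 in 47 of 204 such pairs. The labels do not say that numbers mark shared animals, and whether they do was not tested. Over the 16 named clones, the difference between November and the other months lost its call in 25 combinations of clone and setting and gained one in 9, and it kept its call status in 184. With arrays left out it lost the call in 62 combinations and gained one in 10. None of these turned its sign, which was largely fixed because all 16 clones had November highest. Dim spots limit the depth: 15.1% of the members had no December signal above background on any Dec/Nov array, against 50.1% of all clones.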
